A study of Mus musculus with 4 samples.

Results

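The S100 proteins are a family of small calcium-binding proteins, and their transcripts were followed in mouse brown adipocytes made to express Blnc1, a long noncoding RNA of brown fat. A list of 10 gene symbols was looked up, and every probe set annotated with exactly 1 of them was taken, which gave 11 probe sets for 9 of the 10 genes, out of 10926 named genes and 23599 probe sets in the table. S100b and S100a16 were each read by 2 probe sets, and S100a8 was not analysed here. There were 2 groups of arrays, each with 2 biological replicates: brown adipocytes expressing Blnc1, and brown adipocytes carrying the vector. Both came from preadipocytes labelled wild type and were differentiated for 6 days before total RNA was extracted. The labels do not say whether replicates came from separate transductions, which promoter drove Blnc1, or how many copies the cells carried. Any SD or replicate difference given here is therefore that between these arrays and may be technical. The family was chosen by the log2 differences between Blnc1 and vector arrays, S100b having stood among the larger ones, so these differences are given as a description of the 4 arrays and not as a test.

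S100 proteins carry a pair of EF-hands, loops that bind calcium, and form dimers. Calcium binding turns a greasy face of the dimer outward, which then docks onto target proteins such as annexins, myosin or p53. Several members also leave the cell and act on surface receptors, among them Ager (the receptor for advanced glycation end products) and the innate immune receptor Tlr4. In mouse brown fat S100b has a known role outside the cell: it is released by brown adipocytes and promotes the outgrowth of sympathetic nerve fibres, and an adipocyte form of calsyntenin 3, from the Clstn3 locus, aids its secretion.

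All values are the authors' log2 expression values, where a difference of 1 is a doubling, and array medians lay between 5.98 and 6.04. The expressed transcript was looked at as a check of the labels: the brighter probe set of C730029A08Rik, a symbol that RefSeq lists beside Blnc1 as a synonym of Paqr9, read 12.73 and 12.75 in Blnc1 cells, against 8.08 and 8.14 in vector cells, while its dimmer probe set stood at a log2 fold change of -0.31. Of the 13 brown and general adipocyte markers, all measured, 11 had a positive log2 fold change, against 5641 of the 10926 named genes. The test was passed by 5 of the 13, all higher in Blnc1 cells, against 1.23% of all named genes. Ucp1, the uncoupling protein of brown fat, read 7.97 and 8.05 in Blnc1 cells, against 5.01 and 5.01 in vector cells, and the lipid droplet protein gene Cidea 10.37 and 10.56, against 7.37 and 7.31. The general markers Fabp4 and Adipoq were the brightest of the list and did not pass (log2 fold changes 0.0016 and -0.12), while Lep was dim and overlapped (4.21 and 4.02 in Blnc1 cells, 3.77 and 4.08 in vector cells). The groups also differed in ways that move with every result below. The spiked-in hybridization controls read lower in Blnc1 arrays for 18 of 18 probe sets, by a median of -0.27. The 3 minus 5 prime difference of the Gapdh control probe sets was 0.29 and 0.27 in Blnc1 arrays, against 0.38 and 0.45 in vector arrays. For the beta-actin control probe sets it was 1.29 and 1.40, against 1.47 and 1.56. The Y-linked gene Eif2s3y read 7.30 and 7.31 in Blnc1 cells, against 8.46 and 8.53 in vector cells, and the X-inactivation RNA Xist 11.32 and 11.37, against 10.81 and 10.78. The part of these differences in the S100 values was not tested.

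S100b, best known from astrocytes and Schwann cells and as the nerve-attracting factor of brown fat, was the member with the largest difference. Its brighter probe set read 6.83 and 6.66 in Blnc1 cells, against 5.74 and 5.40 in vector cells. Its dimmer probe set read 5.57 and 5.53 in Blnc1 cells, against 4.33 and 4.38 in vector cells. On both probe sets both Blnc1 arrays lay above both vector arrays, by a gap of 0.92 on the brighter and 1.16 on the dimmer. The brighter probe set gave a 2.26-fold higher level in Blnc1 cells (log2 fold change 1.18 ± 0.13 SE, n = 2 arrays a group). Its means were 6.74 ± 0.12 in Blnc1 cells and 5.57 ± 0.24 in vector cells (SD). This and every later SE is limma's moderated SE, in which a probe set's own spread is drawn toward that of all probe sets. The dimmer probe set gave nearly the same ratio, 2.29-fold (log2 fold change 1.20 ± 0.076 SE), with means of 5.55 ± 0.023 in Blnc1 cells and 4.35 ± 0.031 in vector cells (SD). The dimmer probe set lay below the array medians in both groups, and the brighter one lay below them in vector cells and above them in Blnc1 cells. In whole cultures, more cells that express a gene and more RNA per expressing cell cannot be told apart. The 5 brown adipocyte markers that passed the test moved with S100b, several of them further. Log2 fold changes were 2.997 for Ucp1 (limma adjusted p = 2.70e-04), 3.12 for Cidea (4.43e-04), 1.28 for the cytochrome c oxidase gene Cox7a1 (0.0120), 1.13 for its relative Cox8b (0.0120) and 1.05 for the thyroid hormone deiodinase gene Dio2 (0.0289). For each of these 5 genes both Blnc1 arrays lay above both vector arrays. Other markers of the list moved less and did not pass: Ebf2 stood at 0.38, Elovl3 at 0.27 and Prdm16 at 0.22 on its brightest probe set. The adipocyte factor Cebpa lay the other way, at -0.23, and did not pass. The part of these markers in the S100 values was not tested.

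Across the family 3 of the 11 probe sets passed an adjusted p of 0.05 in the fit over all probe sets (limma, Benjamini-Hochberg), both of S100b and the dimmer one of S100a16, all higher in Blnc1 cells. The same threshold was passed by 0.928% of all probe sets in either direction and by 0.623% in this direction. Because that comparison led to the choice of the family, nothing is read from this count. It fell to 0 without either Blnc1 array (5 probe sets at an unadjusted p under 0.05 in each case, limma), to 1 without vector replicate 2 and to 2 without vector replicate 1, while the log2 fold change of the brighter S100b probe set stayed between 1.00 and 1.35.

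**Figure D1:**
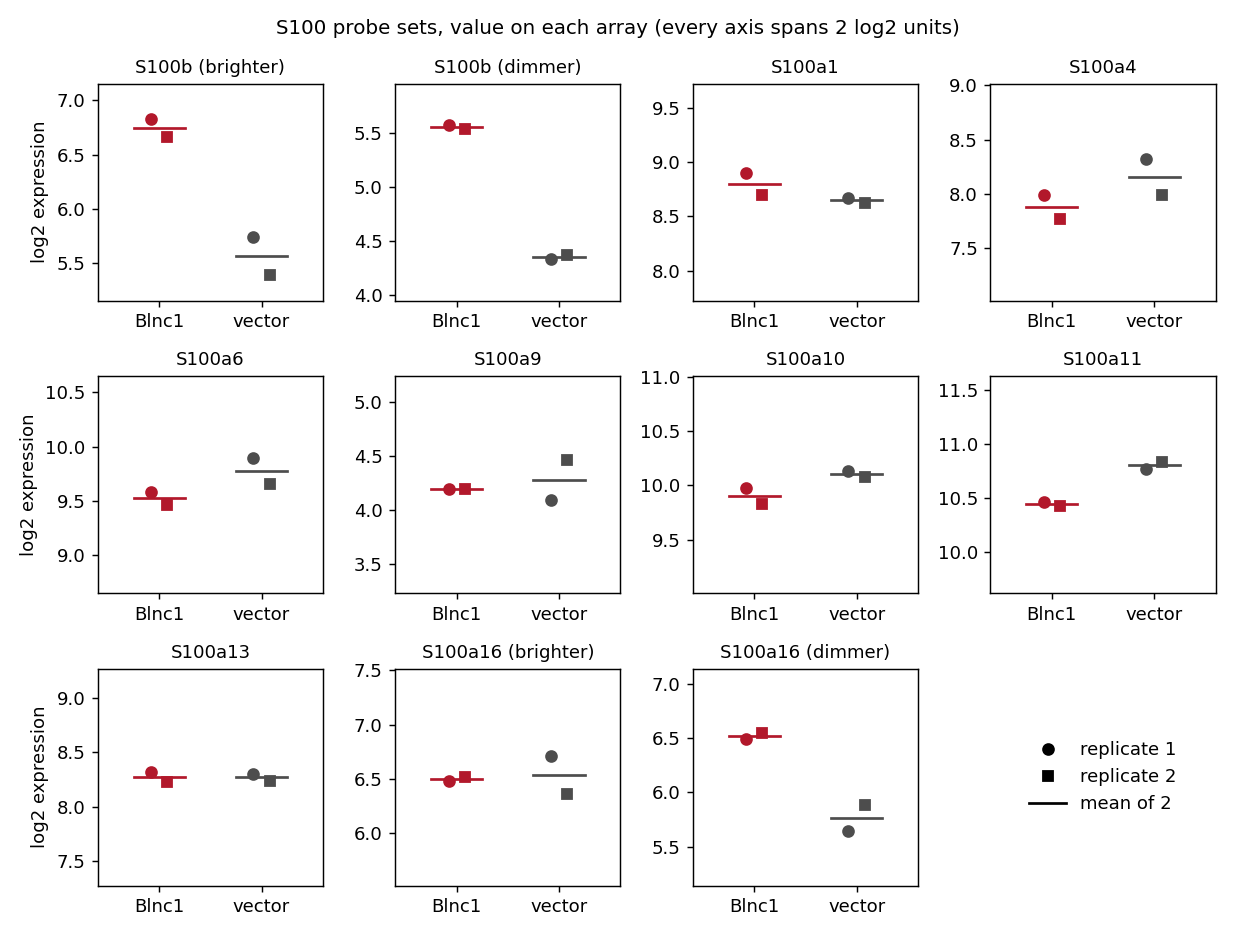
Log2 expression of each S100 probe set (vertical axis, log2 units, every panel spanning the same height) on the 2 Blnc1 arrays (red, left) and the 2 vector arrays (grey, right), with circles for replicate 1, squares for replicate 2 and lines for group means. Both S100b panels show Blnc1 arrays clear of vector arrays, S100a11 shows the reverse on a smaller scale, and the panels of S100a16 differ from each other.

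The S100b gene lies on chromosome 10, apart from the other members measured, which share a cluster on chromosome 3. Its promoter window is shown because S100b is the member whose level differed most. It covers 250 bases before to 50 after the RefSeq transcription start (GRCm38.p6, chr10:76253586-76253885, + strand), and capitals mark matches to a set of short motifs searched on both strands. These were the core promoter motif TATAAA, the binding motif CCAAT of the factor NF-Y, the GC-rich motif GGGCGG of Sp1-type factors, the motif TGANTCA of AP-1, the nuclear receptor repeat unit AGGTCA, and CCCNNGGG, the core motif of EBF factors, which include the brown fat regulator EBF2.
S100b: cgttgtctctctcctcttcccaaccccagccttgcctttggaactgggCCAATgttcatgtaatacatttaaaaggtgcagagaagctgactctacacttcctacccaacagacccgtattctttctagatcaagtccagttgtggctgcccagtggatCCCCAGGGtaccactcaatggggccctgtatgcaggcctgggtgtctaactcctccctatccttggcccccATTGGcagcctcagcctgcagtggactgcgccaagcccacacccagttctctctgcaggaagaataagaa
The window holds CCAAT at -202, its reverse complement at -20, and CCCCAGGG, a match to the EBF core, at -91, counted from the start site to the first base of the match. Matches to CCAAT occur in 37.4% and to CCCNNGGG in 13.7% of the 32851 RefSeq promoter windows of the same length. No match overlaps another in this window, and the match is a match of letters, not a measured binding site.

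The genes beside S100b were examined to see whether its difference was shared along the chromosome, a look added after the S100b values were known. Prmt2, an arginine methyltransferase gene and its nearest measured neighbour on one side, read 6.18 and 6.18 in Blnc1 cells, against 5.83 and 5.78 in vector cells (log2 fold change 0.38 ± 0.076 SE, limma adjusted p = 0.0866). Dip2a, the nearest on the other side, read 8.41 and 8.31 in Blnc1 cells, against 8.20 and 8.09 in vector cells (0.22 ± 0.086 SE, limma adjusted p = 0.254). The next genes out had smaller or negative log2 fold changes: Zfp280b stood at -0.0083, Vpreb3 at -0.17, Pcnt at -0.14 and Mcm3ap at -0.078. Neither flanking gene passed the test, although for each the Blnc1 arrays stood above both vector arrays, by less than for S100b.

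**Figure D2:**
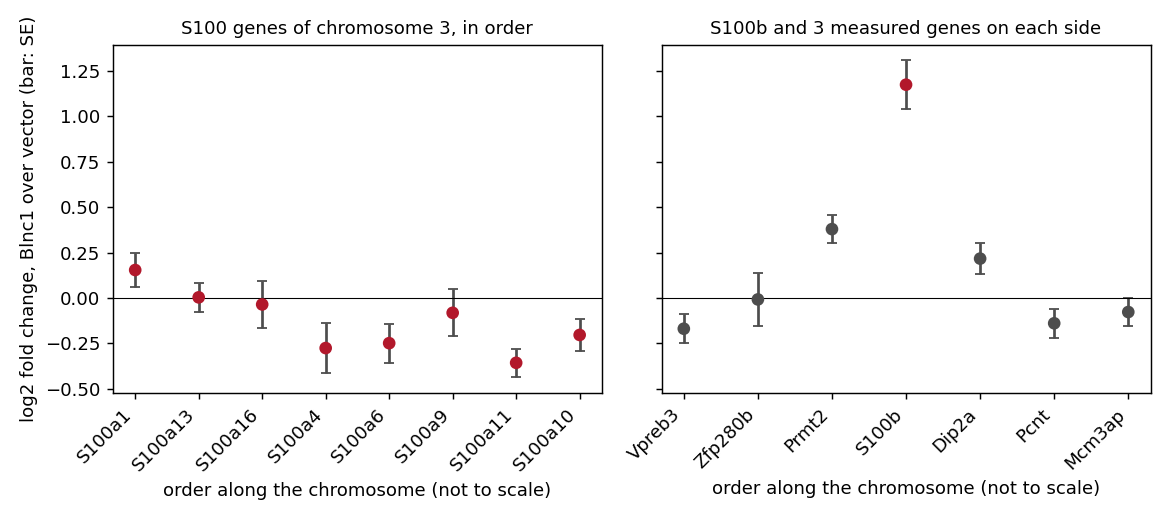
Log2 fold change, Blnc1 over vector (vertical axis, bars showing limma's moderated SE, n = 2 arrays a group), for the 8 measured S100 genes of chromosome 3 in chromosomal order (left) and for S100b with 3 measured genes on each side (right). S100 genes are red and the horizontal axis is not to scale. S100a4 and the genes after it all lie below 0, and S100b stands at 1.18 above Prmt2 at 0.38 and Dip2a at 0.22.

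Among the other 10925 genes, those whose array pattern came closest to that of the brighter S100b probe set were ranked. The measure was the largest gap, over the 4 arrays, between mean-centred log2 values. The closest was Cyp2b10, a cytochrome P450 of drug metabolism, never more than 0.086 log2 units away from S100b on any array. It read 6.14 and 5.93 in Blnc1 cells, against 4.96 and 4.78 in vector cells. Next came Tmigd1 (0.19), the muscle and brown fat cytochrome c oxidase isoform Cox8b (0.20), the channel-family gene Calhm6 (0.20) and the AMP deaminase Ampd3 (0.21), all of them higher in both Blnc1 arrays. With 4 arrays in 2 groups, the likeness is a description of these arrays, and the Cyp2b10 probe set is of a type that can read related transcripts. The dimmer S100b probe set was not ranked against. Its replicate 2 minus replicate 1 was -0.033 in Blnc1 cells and 0.043 in vector cells. For Cyp2b10 these differences were -0.20 and -0.18, and for Cox8b -0.044 and 0.0070, so the order may depend on the probe set.

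A negative log2 fold change was found for 6 genes, and the 4 furthest from 0 (S100a11, S100a4, S100a6 and S100a10), which are widely expressed in mesenchymal cells, are described first. S100a11, which partners annexin A1, read 10.47 and 10.42 in Blnc1 cells, against 10.77 and 10.84 in vector cells. The groups were 0.30 apart with little spread inside either, and the log2 fold change was -0.36 ± 0.078 (SE). S100a10, which does not respond to calcium itself and forms a complex with annexin A2, read 9.98 and 9.83 in Blnc1 cells, against 10.14 and 10.08 in vector cells. Here the gap was 0.10 and the log2 fold change -0.20 ± 0.088 (SE). S100a6, also called calcyclin, read 9.58 and 9.47 in Blnc1 cells, against 9.89 and 9.65 in vector cells. The groups stood 0.071 apart, closer than the 2 vector arrays to each other, at a log2 fold change of -0.25 ± 0.11 (SE). S100a4, a non-muscle myosin partner often used as a fibroblast marker, read 7.99 and 7.77 in Blnc1 cells, against 8.32 and 7.98 in vector cells. For S100a4 the groups overlapped, since one Blnc1 array lay level with the lower vector array, and its log2 fold change of -0.28 ± 0.14 (SE) was smaller than the difference of 0.34 between the vector arrays.

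None of these 4 genes passed the threshold in the fit over all probe sets. S100a11 passed it (limma adjusted p = 5.25e-04) when variances were fitted with an intensity trend, a setting under which 2174 probe sets passed instead of 219, and also when dim probe sets were left out (0.0324). S100a10 passed under the intensity trend alone (0.0469). Other scalings of the arrays and leaving out single arrays kept the log2 fold change of the 4 genes negative. For S100a11, S100a6 and S100a10 a left-out array could not turn the sign, since both Blnc1 arrays lay below both vector arrays. The ranges were -0.39 to -0.32 for S100a11, -0.44 to -0.11 for S100a4, -0.37 to -0.13 for S100a6 and -0.28 to -0.13 for S100a10. The rest of the 12 alternative settings leave a log2 fold change as it is and could not change its sign. Fibroblast and preadipocyte markers ran in the same direction as these genes: all 9 measured had a negative log2 fold change, against 48.4% of all named genes, and none passed the test. At an unadjusted p under 0.05 (limma) 3 of them were lower, against 9.08% of all named genes lower and 11.7% higher. Their mean level was 6.35 and 6.36 in Blnc1 cells, against 6.57 and 6.64 in vector cells. Col1a1, the chain of type I collagen, read 6.56 and 6.70 in Blnc1 cells, against 6.95 and 7.25 in vector cells, and Dlk1, a preadipocyte inhibitor of differentiation, 5.07 and 5.14, against 5.50 and 5.55. The surface marker Thy1 read 5.52 and 5.58 in Blnc1 cells, against 5.84 and 5.94 in vector cells, and the brightest of the list, Vim and Fn1, had log2 fold changes of -0.12 and -0.27. Of the 9 fibroblast and preadipocyte markers, 5 lay below the median level of all probe sets. The groups overlapped for Vim and for Pdgfra, the dimmest of the list. The part of such cells in the S100 values was not tested.

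**Figure D3:**
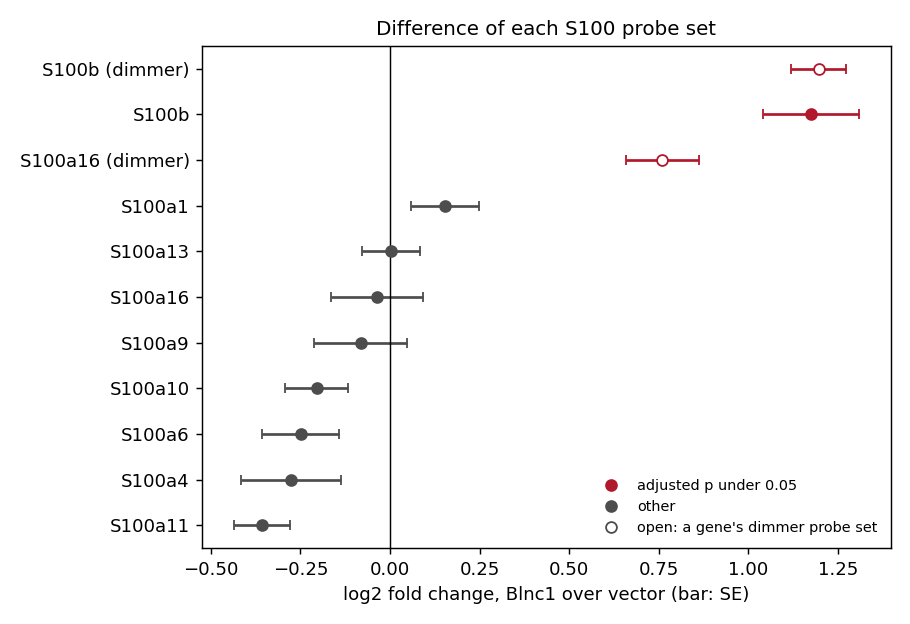
Log2 fold change, Blnc1 over vector (horizontal axis, bars showing limma's moderated SE, n = 2 arrays a group), for each of the 11 S100 probe sets, sorted by size. Red points passed an adjusted p of 0.05 (limma) and open points are the dimmer probe set of a gene read by 2. The values run from -0.36 for S100a11 to 1.20 for the dimmer probe set of S100b.

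Promoter windows of S100a11 and S100a4 are shown as examples of the members with a negative log2 fold change (GRCm38.p6, + strand, chr3:93520246-93520545 and chr3:90603520-90603819), with capitals marking the same motifs.
S100a11: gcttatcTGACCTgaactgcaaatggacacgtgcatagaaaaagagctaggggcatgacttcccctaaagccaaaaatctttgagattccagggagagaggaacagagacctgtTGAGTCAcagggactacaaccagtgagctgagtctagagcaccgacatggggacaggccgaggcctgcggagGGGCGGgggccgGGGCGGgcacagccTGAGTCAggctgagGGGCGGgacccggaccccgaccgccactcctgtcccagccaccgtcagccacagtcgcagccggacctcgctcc
S100a4: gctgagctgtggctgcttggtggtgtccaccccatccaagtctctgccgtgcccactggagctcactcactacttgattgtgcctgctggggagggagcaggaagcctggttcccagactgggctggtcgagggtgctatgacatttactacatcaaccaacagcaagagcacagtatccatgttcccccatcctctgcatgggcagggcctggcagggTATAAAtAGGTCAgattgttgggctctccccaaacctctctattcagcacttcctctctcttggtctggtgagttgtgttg
The S100a11 window holds GGGCGG at -64, -52 and -24, TGAGTCA, a match to the AP-1 motif, at -136 and -38, and TGACCT, the reverse complement of AGGTCA, at -243. The S100a4 window holds TATAAA at -31 and AGGTCA at -24. Of all windows, 35.7% hold GGGCGG, 7.81% TGANTCA, 16.3% AGGTCA and 13.6% TATAAA. The 2 windows differ in make-up, one with 3 matches to GGGCGG and the other with a match to TATAAA. Any link between such matches and the log2 fold changes was not tested. No CCCNNGGG was found in either window, which says only that these letters are not there. The CCCCAGGG of the S100b window is not particular to it, since a window of S100a16 holds the same letters at -33. The probe sets of S100a16 stood at -0.036 and 0.76.

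S100a1 and S100a13 are transcribed away from each other, and their promoter windows share 204 bases. S100a1, abundant in heart and skeletal muscle where it binds the calcium pump and release channels, read 8.90 and 8.70 in Blnc1 cells, against 8.67 and 8.62 in vector cells. Both Blnc1 arrays were higher, but by a gap of 0.027 that is far below the difference between the Blnc1 arrays, and the log2 fold change was 0.15 ± 0.096 (SE). S100a13, which assists the unconventional release of the growth factor Fgf1, read 8.32 and 8.23 in Blnc1 cells, against 8.30 and 8.24 in vector cells. Its arrays interleave, and the log2 fold change was 0.0032 ± 0.081 (SE), with a sign that turned under quantile normalization or median centring (-0.013 in each). The window of S100a13 is shown for this shared stretch (GRCm38.p6, chr3:90514185-90514484, + strand), and no motif match, so no capital, falls in it.
S100a13: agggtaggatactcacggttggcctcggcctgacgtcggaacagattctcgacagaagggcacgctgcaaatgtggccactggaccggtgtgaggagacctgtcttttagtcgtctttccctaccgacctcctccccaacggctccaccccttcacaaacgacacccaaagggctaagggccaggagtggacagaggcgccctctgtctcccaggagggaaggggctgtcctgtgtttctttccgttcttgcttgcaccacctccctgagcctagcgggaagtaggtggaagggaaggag

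S100a16, reported to promote adipogenesis when overexpressed in cultured mouse preadipocytes, was the member whose probe sets disagreed. The brighter one read 6.48 and 6.52 in Blnc1 cells, against 6.71 and 6.36 in vector cells. The Blnc1 values lay inside the range of the vector arrays, with a log2 fold change of -0.036 ± 0.13 (SE). The dimmer one read 6.49 and 6.54 in Blnc1 cells, against 5.64 and 5.88 in vector cells. On this probe set the groups stood 0.62 apart and the log2 fold change was 0.76 ± 0.10 (SE), 1.69-fold. Its identifier carries the suffix that the array maker gives to probe sets prone to cross-hybridisation, and the transcript it reads was not examined here. The direction for S100a16 therefore depends on the probe set, and the mean of both was 0.36.

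S100a9, a subunit of the calprotectin complex of neutrophils, was dim on every array, at 4.19 and 4.20 in Blnc1 cells and 4.09 and 4.46 in vector cells. The groups overlapped, the log2 fold change was -0.082 ± 0.13 (SE), and its sign turned without vector replicate 2. The 4 measured neutrophil and macrophage markers were also dim, with mean levels of 4.59 and 4.70 in Blnc1 cells and 4.64 and 4.56 in vector cells, and Adgre1, Elane and Csf1r had log2 fold changes of 0.10, 0.063 and -5.3e-04. Of the 5 measured Schwann cell and glia markers, which bear on S100b, the defining transcription factor Sox10 was dim as well, at 5.00 and 5.07 in Blnc1 cells, against 5.00 and 5.24 in vector cells. The 5 had mean levels of 5.45 and 5.53 in Blnc1 cells, against 5.50 and 5.68 in vector cells. A negative log2 fold change was found for 3 of them, and none passed the test. At an unadjusted p under 0.05 (limma) 1 was higher and 2 lower, against 11.7% and 9.08% of all named genes. The smallest p of the Schwann cell and glia list were those of Egr2, a myelination factor (4.12 and 3.98 in Blnc1 cells, 4.53 and 4.69 in vector cells), and of the myelin protein gene Pmp22 (8.94 and 8.98, against 9.23 and 9.30), both with a negative log2 fold change. Erbb3 went the other way, at 4.28 and 4.38 in Blnc1 cells, against 3.73 and 4.10 in vector cells (log2 fold change 0.42). The dimmer Sox10 probe set stood at 0.13, against -0.083 for the brighter one. The 3 chondrocyte and melanocyte markers measured, which cover other cells known for S100b, were below the array medians and overlapped between the groups (log2 fold changes -0.19 for Sox9, -0.075 for Pmel and -0.011 for Mitf).

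Taken as a family, the 9 genes split by direction, with 3 positive and 6 negative log2 fold changes on their brighter probe sets and a median of -0.082, against 0.0073 for all named genes. The median absolute log2 fold change was 0.20, against 0.11 for all named genes, and 6 of the 9 members lay above this second value. Groups did not overlap for 7 of the 11 probe sets, which compares with 50.4% of all probe sets. For 6 of the 11, the groups differed by more than the larger of the replicate differences, as they did for 38.5% of all probe sets. Because the family was chosen on these differences, nothing is read from these counts.

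**Figure D4:**
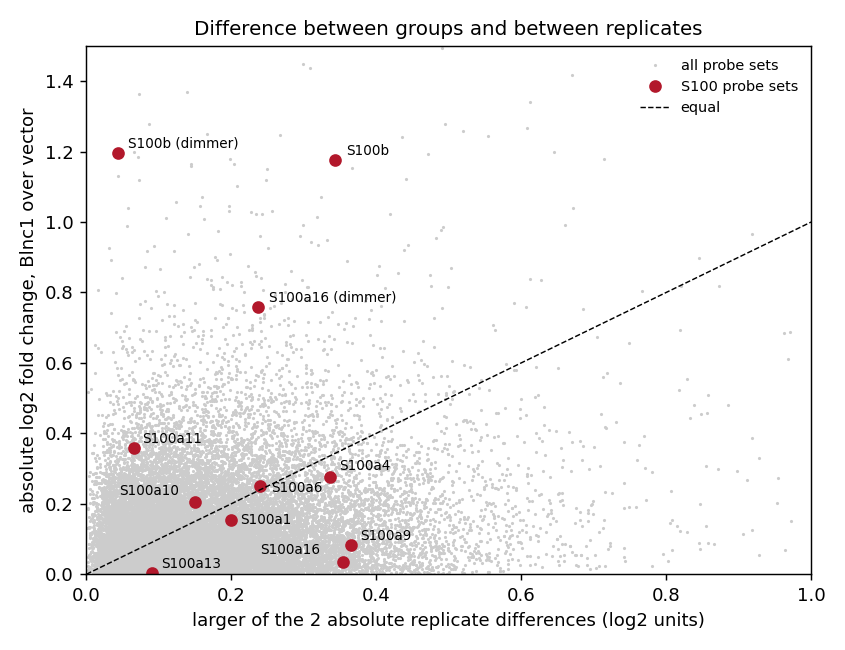
Absolute log2 fold change, Blnc1 over vector (vertical axis), against the larger of the absolute replicate differences in the Blnc1 and vector arrays (horizontal axis), both in log2 units, for all probe sets (grey) and the 11 S100 probe sets (red); 27 probe sets lie beyond the axes. The 2 S100b probe sets share a height near 1.2 but differ in replicate spread, S100a6 lies just above the dashed line of equality, and S100a1, S100a4, S100a9, S100a13 and the brighter S100a16 lie below it.

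Receptors for secreted S100 proteins lay on both sides of 0. All 10 listed were measured, 4 were positive and 6 negative, the median was -0.032, and none passed on the brightest probe set (2 higher and 2 lower at an unadjusted p under 0.05, limma), while 1.23% of all named genes passed. At that unadjusted p, 11.7% of all named genes were higher and 9.08% lower, shares that also stand beside the counts of the lists below. Bsg, or basigin, a receptor for S100a9 and chaperone of lactate transporters, read 11.13 and 11.35 in Blnc1 cells, against 10.36 and 10.70 in vector cells (log2 fold change 0.71 ± 0.14 SE, limma adjusted p = 0.0843). Fgfr1, a growth factor receptor that S100b can engage, read 7.86 and 7.90 in Blnc1 cells, against 8.26 and 8.35 in vector cells (-0.43 ± 0.079 SE, limma adjusted p = 0.0775), though its dimmer probe set stood at -0.10. The adhesion receptor Alcam stood at -0.58 ± 0.12 (SE) and did not pass, while its dimmer probe set fell by 0.69 on the log2 scale (limma adjusted p = 0.0454). Ager, the best known S100 receptor, was below the array medians at 5.76 and 5.68 in Blnc1 cells, against 5.40 and 5.48 in vector cells, and Tlr4 was dim at 4.35 and 4.36, against 4.34 and 4.41.

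Inside the cell, 16 of 20 listed S100 partners were measured, with 5 positive and 11 negative, a median of -0.042, and none past the test (1 higher and 2 lower at an unadjusted p under 0.05, limma). Cacybp, the calcyclin-binding protein that pairs with S100a6, read 9.34 and 9.22 in Blnc1 cells, against 9.60 and 9.52 in vector cells (-0.28 ± 0.087 SE). Annexin A1, the partner of S100a11, stood at -0.17 ± 0.078, and Anxa11, an annexin that binds S100a6, at -0.21 ± 0.076 (SE). Annexin A2, the partner of S100a10, lay the other way, at 10.005 and 10.21 in Blnc1 cells, against 9.81 and 9.95 in vector cells (0.22 ± 0.10 SE). Myh9, the non-muscle myosin heavy chain bound by S100a4, stood at -0.17 ± 0.091 (SE). None of these differences passed, so the partner genes cannot be said to follow their S100 members or to diverge from them.

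Of 12 listed genes of fat innervation 6 were measured, with 4 positive, a median of 0.15 and none past the test (2 higher at an unadjusted p under 0.05, limma). Clstn3, whose adipocyte form aids S100b secretion, read 6.39 and 6.33 in Blnc1 cells, against 6.15 and 5.89 in vector cells. Both Blnc1 arrays were higher (log2 fold change 0.34 ± 0.11 SE, limma adjusted p = 0.181), and which Clstn3 form the probe set reads was not examined. Prdm16, a transcription factor of brown fat identity, stood at 0.22 ± 0.081 (SE), and its other 2 probe sets at -0.0058 and -0.038. Other EF-hand proteins served as relatives outside the family: 22 of 29 were measured, 8 positive and 14 negative, with a median of -0.088 and none past the test (2 higher and 2 lower at an unadjusted p under 0.05, limma). Sri, or sorcin, stood at 0.33 ± 0.077, and Nucb1, a Golgi calcium-binding protein, at -0.32 ± 0.080 (SE). The dimmer Sri probe set stood at 0.10, with overlapping groups. On brightest probe sets the log2 fold changes of these EF-hand genes ran from -0.32 to 0.33. This span takes in every S100 gene's brighter probe set except those of S100b and S100a11. The dimmer probe set of Sparc, another gene of the list, lay just beyond it at -0.34. Of the remaining S100 and fused-type S100 genes on the list only S100pbp, which encodes an S100P-binding protein and no S100 protein, and Rptn were measured, at 0.18 ± 0.13 and 0.042 ± 0.076 (SE).

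**Figure D5:**
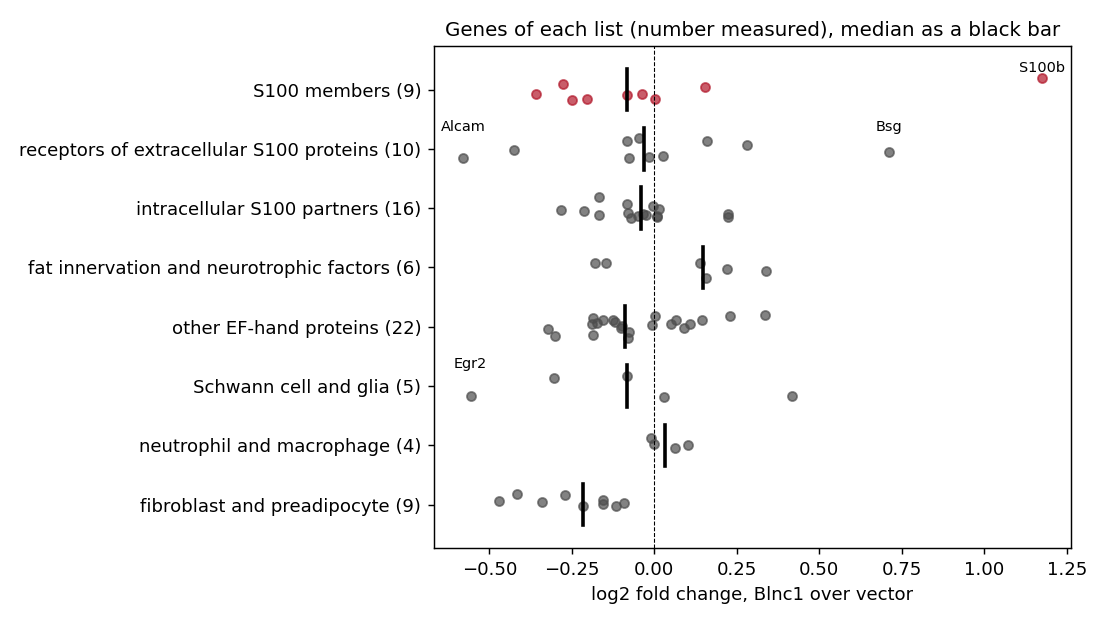
Log2 fold change, Blnc1 over vector (horizontal axis), of each measured gene by its brightest probe set, with lists down the page, the number measured in brackets, black bars at list medians and names for genes beyond 0.55 in either direction. S100b stands at 1.18 apart from the other 8 members, Bsg and Alcam lie at opposite ends of the receptors, and all 9 fibroblast and preadipocyte genes lie below 0.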

How the data were processed

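Total RNA from 4 samples was hybridised to single-colour Affymetrix mouse arrays. The deposited table holds the authors' log2 expression values, 1 per probe set and array, with RMA, affy and limma named in the submitters' processing notes without versions or settings. The log2 scale was read from the range of 2.70 to 13.3. All 4 columns were used, and 35 control probe sets were set aside, leaving 23599. Of these, 16692 had 1 gene symbol in GEO's platform annotation. Where a gene had several probe sets, the one brightest on average over the 4 arrays stood for it.

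Groups came from the sample titles. Blnc1 was compared with vector by limma 3.58.1 in R 4.3.3 (lmFit, eBayes, two-sided, no covariate or filter), with Benjamini-Hochberg adjustment over all probe sets and a threshold of 0.05. The procedure was tested on simulated data. Each SE rests on a variance drawn toward a prior shared by all probe sets (prior SD 0.0917, 3.95 prior degrees of freedom). The number of arrays limits the precision. Members and lists were chosen with earlier results of these data known. Named were all members, genes of each list past the threshold or with its 2 smallest p, the 2 brightest of each marker list, and the 5 genes most like S100b; the other partners, receptors and markers named were chosen for their known link to a member, after values were seen. Promoters are RefSeq's (GRCm38.p6), found for 8 of the 9 measured genes. Alternatives were other variance priors, scalings, filters and thresholds, an unmoderated test, a replicate block and leaving out each array.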

Additional observations from a re-analysis of the deposited data

How the results depend on the processing

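The total of 219 probe sets past the threshold became 2174 with an intensity trend in the variance prior, 1020 when dim probe sets were left out, 958 at an adjusted p of 0.1, 30 with the replicate number as a block and 0 with an unmoderated linear model (3204 at an unadjusted p under 0.05); leaving out single arrays gave 3 to 38. The S100 count of 3 probe sets became 5 with the trend (S100a10 and S100a11 added, both lower), 1 with the replicate block (the dimmer probe set of S100b) and 0 with the unmoderated model (4 at an unadjusted p under 0.05), and 0 to 2 when single arrays were left out. The cause of these shifts was not tested. Replicate numbers were not taken as a pairing: over all probe sets the replicate differences of the 2 groups correlated at 0.089 (Pearson), with 2 pairs. For 6 of the 9 S100 genes, however, replicate 2 lay below replicate 1 in both groups, and the share of all genes was not counted. The mean of the 9 was 8.08 and 7.98 in Blnc1 cells, against 8.07 and 7.96 in vector cells. Only other scalings, left-out arrays and a mean over probe sets could change a log2 fold change, since the other alternatives alter the test or the filter alone. The log2 fold change of S100b stayed positive in all 13 alternatives (1.00 to 1.35). A left-out array or the mean over its probe sets could not turn this sign, since on each probe set both Blnc1 arrays lay above both vector arrays. The mean of both S100a16 probe sets was 0.36, against -0.036 for the brighter one, and S100a13 changed sign in 4 of 12 alternatives around 0. With 2 arrays a group and no raw intensities used here, small differences of dim probe sets such as S100a9 could not be resolved.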
